A study of Mus musculus with 23 samples.

Results

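The 9 genes described here are markers of the resting, homeostatic state of microglia, the macrophages that live in brain tissue. They are Tmem119, P2ry12, P2ry13, Cx3cr1, Sall1, Siglech, Gpr34, Olfml3 and Selplg and were chosen by name. They are 9 of the 18876 genes in the deposited table of counts, and all 9 passed the filter on low counts that left 18759 genes. Bulk RNA-sequencing had been done on CD11b+ cells drawn with magnetic beads from both hippocampi of female mice, with 1 library per sample.

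Microglia in healthy brain survey the tissue with fine processes and carry a set of receptors that read signals from neurons and damaged cells. In plaque-bearing brain they are known to lower many of these genes while raising lipid, lysosomal and phagocytic genes. Among the 9 genes, P2ry12 and P2ry13 encode purine nucleotide receptors, P2ry12 being needed for process extension toward injury. Cx3cr1 is the receptor for the neuronal chemokine fractalkine, and Gpr34 is a receptor for lysophosphatidylserine. Tmem119 is a transmembrane protein used to tell microglia from other macrophages. Siglech is a sialic acid binding lectin that signals through Tyrobp. Selplg encodes the selectin ligand PSGL-1. Olfml3 is a secreted matrix protein, and Sall1 is the transcription factor that maintains microglial identity.

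All mice were Slc11a2 fl/fl and carried 1 copy of Cx3cr1 Cre-ERT2, a tamoxifen-inducible Cre recombinase under the Cx3cr1 promoter. Slc11a2 encodes the iron importer DMT1. The groups labelled Slc11a2KD had received 4 mg tamoxifen by gavage on 5 days in a row at 5 to 6 months of age, and the groups labelled Control had received corn oil. Each arm held mice with the APP/PS1 transgene, a mutant amyloid precursor protein with a mutant presenilin-1 that leads to amyloid plaques, and wildtype (WT) littermates. The background was mixed 129S and C57BL/6J, and cells were collected at 15 to 18 months. Knockdown and tamoxifen cannot be told apart in this design, since no group had tamoxifen without the floxed gene. The Cre insertion replaces an allele of Cx3cr1 itself in every group, Controls included, so the level of Cx3cr1 does not stand for mice with both alleles intact.

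The groups held 6 Control WT, 7 Control APP/PS1, 5 Slc11a2KD WT and 5 Slc11a2KD APP/PS1 samples. Control APP/PS1 0010 was left out of the comparisons as the sample the study removed, which left 22 samples with 31128643 to 54872491 counts each. In the samples used, single values of the 9 genes rested on 1807 counts or more. The count of the targeted gene Slc11a2 over its whole length passed the test between the arms in neither genotype, at 29.9 to 43.7 CPM (counts relative to the scaled library total) in Control WT, 27.1 to 38.1 in Slc11a2KD WT, 40.0 to 48.2 in Control APP/PS1 and 37.8 to 75.1 in Slc11a2KD APP/PS1. In APP/PS1 the difference of Slc11a2KD from Control was positive but did not pass (log2 fold change 0.39, SE 0.14, unadjusted p = 0.0128, edgeR adjusted p = 0.205), with every sample but 0004 above all Control APP/PS1 samples. The whole-gene count includes reads outside any deleted part and therefore does not check the knockdown. The study itself checked it in isolated microglia by RT-qPCR with a primer on part of the gene. It also reported loss of expression over those exons in the sequenced knockdown microglia. The groups are named here by their labels. Slc11a2KD samples carried library numbers 1 to 4 and 18 to 23 and Controls 5 to 17, so no Control shared a run of numbers with a Slc11a2KD sample.

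On GRCm39, the genes lay on 6 chromosomes, with 2 pairs of close neighbours. P2ry12 (chromosome 3, 59123682 to 59170429) and P2ry13 (chromosome 3, 59114539 to 59118304) were 5377 bp apart on the minus strand. Tmem119 (chromosome 5, 113931781 to 113938577) and Selplg (chromosome 5, 113956597 to 113970705) were 18019 bp apart, also on the minus strand. Olfml3 lay far from the purine receptors (chromosome 3, 103629538 to 103645322, minus strand). Cx3cr1 (chromosome 9, 119877749 to 119898945) and Sall1 (chromosome 8, 89753863 to 89770823) were on the minus strand, and Siglech (chromosome 7, 55417926 to 55429195) and Gpr34 (chromosome X, 13489625 to 13507116) were on the plus strand. Exons of other genes on the opposite strand covered 12.6% of the exon length of Selplg, 9.95% of Sall1, 9.17% of P2ry12, 2.01% of Olfml3 and 1.67% of Cx3cr1. The strand setting of the counting was not given in the sources used here, so reads in those overlaps could not be assigned to a strand.

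The sequences before the start sites are shown for the neighbouring receptor genes P2ry12 and P2ry13, which were both lower in APP/PS1 in either arm, and for Olfml3, which did not pass the test in either arm. They are the 250 bases upstream of the start site from RefSeq on GRCm38.p6, 5′ to 3′ on the minus strand, at chr3:59262986-59263235 for P2ry12, chr3:59210883-59211132 for P2ry13 and chr3:103738002-103738251 for Olfml3. Capitals mark GAGGAA, the core letters bound by the myeloid factor PU.1, searched on both strands.
P2ry12: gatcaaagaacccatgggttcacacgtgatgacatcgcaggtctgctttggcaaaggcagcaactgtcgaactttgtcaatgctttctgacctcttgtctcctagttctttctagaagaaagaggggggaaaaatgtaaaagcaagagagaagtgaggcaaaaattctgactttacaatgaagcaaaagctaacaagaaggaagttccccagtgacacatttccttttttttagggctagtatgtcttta
P2ry13: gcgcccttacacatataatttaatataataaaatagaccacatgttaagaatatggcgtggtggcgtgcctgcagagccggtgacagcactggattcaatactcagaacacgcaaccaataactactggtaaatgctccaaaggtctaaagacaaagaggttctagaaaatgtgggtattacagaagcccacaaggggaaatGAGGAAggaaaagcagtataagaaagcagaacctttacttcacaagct
Olfml3: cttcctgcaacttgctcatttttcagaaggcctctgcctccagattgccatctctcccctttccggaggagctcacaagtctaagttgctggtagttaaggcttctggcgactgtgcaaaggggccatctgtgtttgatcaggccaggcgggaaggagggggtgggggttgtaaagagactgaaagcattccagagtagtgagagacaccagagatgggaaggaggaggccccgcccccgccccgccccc
The table of promoters held 6 of the 9 genes with 8 start sites, and GAGGAA occurred in 1 of the 8 windows, 48 bases before the start of P2ry13, against 23.3% of 32851 promoter windows of the same length. CAGAC, the letters bound by SMAD factors, occurred in 4 of the 8 against 42.2%. GGAA, the shorter core of the ETS family, which lies inside GAGGAA, occurred in 7 of the 8 against 93.4%. These are matches of letters, not binding sites.

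In Control WT, the level per kilobase of exon was highest for P2ry12 (1669 ± 259 CPM per kb, SD, n = 6), Tmem119 (1412 ± 67.8) and Gpr34 (1206 ± 218). Cx3cr1 followed at 593 ± 62.2 CPM per kb, then P2ry13 at 453 ± 69.8, Olfml3 at 397 ± 46.6 and Selplg at 384 ± 32.0. Siglech (126 ± 18.1) and the transcription factor Sall1 (38.2 ± 6.32) were lowest. Exon lengths here join the exons of all annotated isoforms, so the order between genes depends on that annotation. In Control APP/PS1, the order at the top was different, with Gpr34 at 1023 ± 116 CPM per kb, P2ry12 at 845 ± 89.7 and Tmem119 at 666 ± 114 (SD, n = 6).

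**Figure D1:**
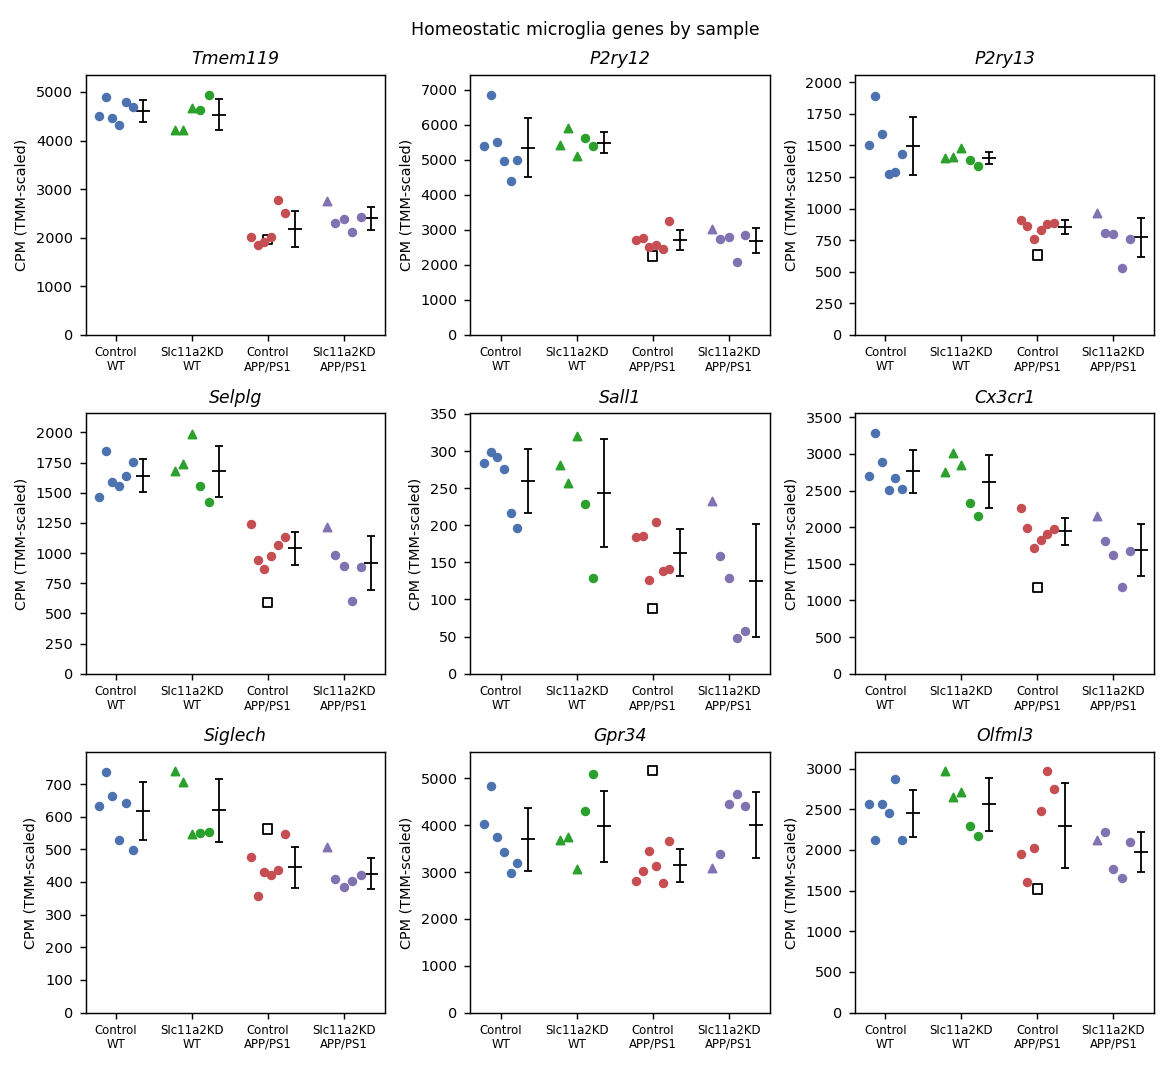
Level of each gene in every sample, in CPM after TMM scaling, with the axis from 0 and the bar giving mean ± SD beside each group. Triangles mark libraries 1 to 4, circles all other libraries, and the open square Control APP/PS1 0010, which is in no mean and was scaled over all 23 samples. Within each arm, the APP/PS1 group lies below the WT group for Tmem119, P2ry12, P2ry13, Selplg and Cx3cr1, while the groups of Gpr34 and Olfml3 overlap.

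The first comparison set Control APP/PS1 against Control WT and read the size of the difference in each identity gene. 6 of the 9 genes were lower, by between 27.9% and 52.8%, and the other 3, Sall1, Gpr34 and Olfml3, did not pass the test (edgeR's quasi-likelihood test, Benjamini-Hochberg adjusted p under 0.05 over all genes tested). The share of all 18759 genes that were lower by this rule was 4.48%. The median log2 fold change was -0.66 over the 9 genes and -0.02 over all genes. In 5 genes every Control APP/PS1 sample lay below every Control WT sample, which was true of 3.03% of all genes. In bulk samples, fewer cells of a type and less RNA per cell cannot be told apart.

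Tmem119 had the largest estimated loss of the 9. It ran from 4320 to 4898 CPM with a median of 4603 in Control WT, and from 1847 to 2773 with a median of 2010 in Control APP/PS1. The groups were far apart, with the highest APP/PS1 sample well under the lowest WT sample. The remaining level was 47.2% of WT (95% interval 40.8 to 54.6), a log2 fold change of -1.08 (SE 0.10, edgeR adjusted p = 7.02e-08).

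Of the nucleotide receptors, P2ry12 ran from 4384 to 6845 CPM with a median of 5202 in Control WT, and from 2456 to 3243 with a median of 2650 in Control APP/PS1. It kept 50.6% of the WT level (43.3 to 59.2), a log2 fold change of -0.98 (SE 0.11, edgeR adjusted p = 8.70e-07). Its neighbour P2ry13 ran from 1272 to 1895 CPM (median 1466) in Control WT and from 762 to 911 (median 871) in Control APP/PS1. Both receptors had groups that did not overlap. P2ry13 kept 57.1% of WT (48.3 to 67.5), a log2 fold change of -0.81 (SE 0.12, edgeR adjusted p = 3.37e-05).

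Selplg and Cx3cr1 were also lower. Selplg ran from 1468 to 1844 CPM (median 1612) in Control WT and from 868 to 1241 (median 1021) in Control APP/PS1, and it kept 63.3% of WT (52.5 to 76.2; log2 fold change -0.66, SE 0.13, edgeR adjusted p = 0.00124). Cx3cr1 ran from 2502 to 3278 CPM (median 2685) in Control WT and from 1717 to 2263 (median 1936) in Control APP/PS1. The groups of either gene did not overlap, although for Cx3cr1 the highest APP/PS1 sample came close to the lowest WT sample. Cx3cr1 kept 70.4% of WT (59.2 to 83.8), a log2 fold change of -0.51 (SE 0.12, edgeR adjusted p = 0.00718).

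Siglech was the least reduced gene that passed the test. It ran from 499 to 736 CPM (median 637) in Control WT and from 356 to 548 (median 434) in Control APP/PS1, with 5 of 6 APP/PS1 samples below every WT sample. It kept 72.1% of WT (60.8 to 85.5), a log2 fold change of -0.47 (SE 0.12, edgeR adjusted p = 0.0106).

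The 3 remaining genes had overlapping groups. Sall1, the rarest transcript, ran from 196 to 298 CPM (median 279.7) in Control WT and from 126 to 204 (median 162) in Control APP/PS1, with 5 of 6 APP/PS1 samples below every WT sample. Its log2 fold change of -0.67 was close to that of Selplg, but its error was wider (SE 0.28, edgeR adjusted p = 0.130, 95% interval of the remaining level 42.1% to 93.4%). The call depended on the fit: with only the 2 groups compared the adjusted p was 0.00289, and with DESeq2 it was 0.0474. Gpr34 ran from 2987 to 4836 CPM (median 3585) in Control WT and from 2771 to 3668 (median 3069.6) in Control APP/PS1, and its log2 fold change was -0.24 (SE 0.14, edgeR adjusted p = 0.308). Olfml3 ran from 2123 to 2870 CPM (median 2508) in Control WT and from 1612 to 2977 (median 2255) in Control APP/PS1, where its spread was wider. Its log2 fold change was -0.09 (SE 0.13, edgeR adjusted p = 0.761), with a remaining level between 77.5% and 113% of WT.

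**Figure D2:**
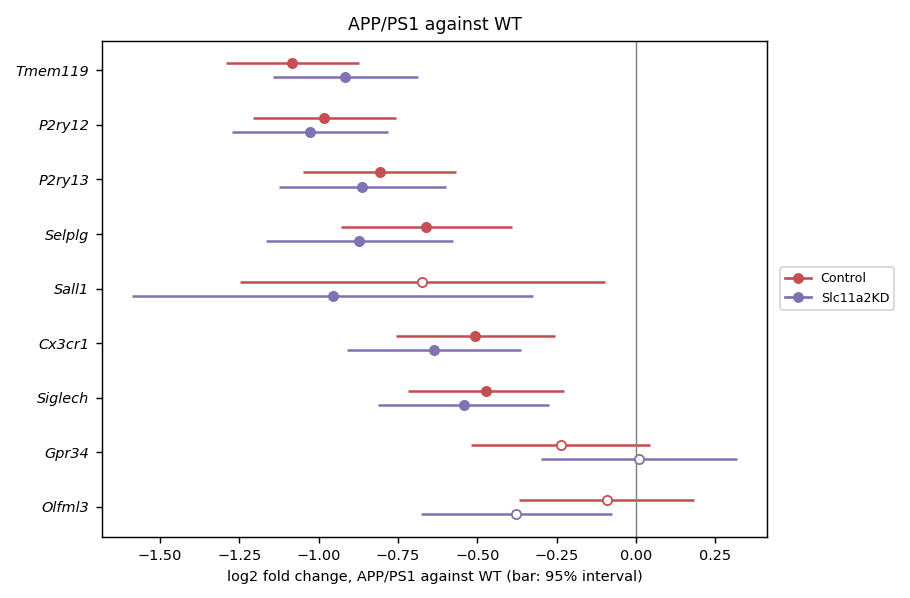
log2 fold change of each gene in APP/PS1 against WT, within Control (red) and within Slc11a2KD (purple), with bars for the 95% interval and filled points where the edgeR adjusted p was under 0.05. In Control, the estimates run from -1.08 for Tmem119 to -0.09 for Olfml3, and in Slc11a2KD from -1.03 for P2ry12 to 0.01 for Gpr34.

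Whether the genes fell by different amounts was tested on the log2 ratio of 2 genes within each library, which does not depend on scaling between libraries. There were 36 pairs, and the p-values of the two-sided exact permutation tests were adjusted over the 36. In Control, 16 pairs had an adjusted p under 0.05, and 8 had ratios that did not overlap between the groups. Tmem119 fell more than Olfml3 by 0.98, more than Gpr34 by 0.87, more than Siglech by 0.63, more than Cx3cr1 by 0.59 and more than Selplg by 0.43 on the log2 scale (exact permutation test, each adjusted p = 0.00974, raw p = 0.00216, the smallest that 6 against 6 samples allow). The loss of Tmem119 was not distinguishable from that of P2ry12, with a difference in log2 ratio of -0.12 (exact permutation test, adjusted p = 0.424).

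Within the purine receptors, P2ry12 fell slightly more than P2ry13, with a difference of -0.18 in log2 ratio (exact permutation test, adjusted p = 0.0468). P2ry13 in turn fell more than Cx3cr1 by 0.29 (exact permutation test, adjusted p = 0.00974) and more than Siglech by 0.33 (adjusted p = 0.0468, exact permutation test). Cx3cr1 and Siglech did not differ detectably (-0.03, exact permutation test, adjusted p = 0.761). The log2 ratio of Sall1 to Gpr34, neither of which passed the test alone, differed by -0.45 (exact permutation test, adjusted p = 0.0468), and that of Gpr34 to Selplg by 0.44 (exact permutation test, adjusted p = 0.0487).

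**Figure D3:**
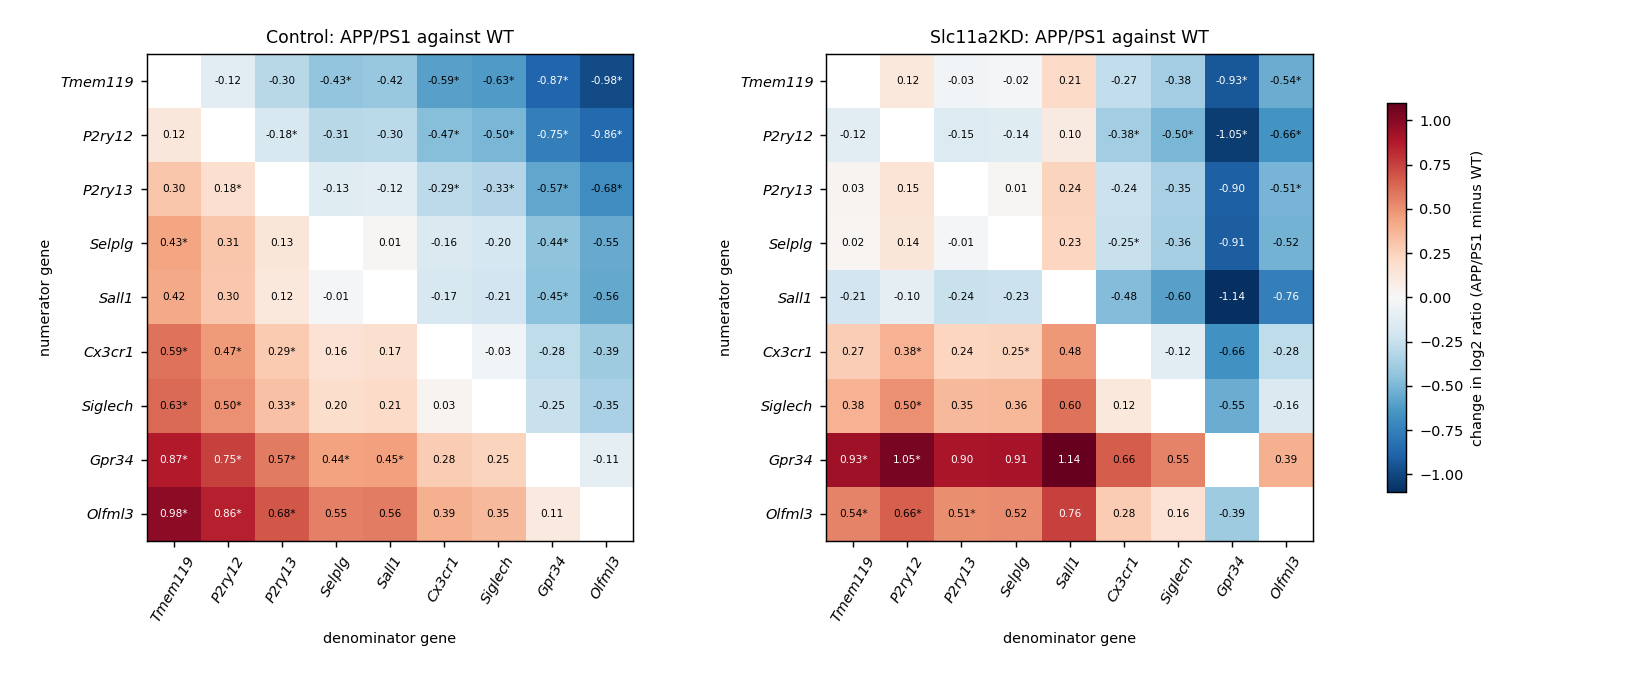
Change in the log2 ratio of each gene in the rows to each gene in the columns, APP/PS1 minus WT, for Control (left) and Slc11a2KD (right). Blue cells mean that the row gene fell more than the column gene, and an asterisk marks an adjusted p under 0.05 over 36 pairs (16 in Control, 8 in Slc11a2KD). The most negative ratio is Tmem119 to Olfml3 in Control, at -0.98, and Sall1 to Gpr34 in Slc11a2KD, at -1.14, which did not pass the test.

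The same comparison within the tamoxifen arm set the libraries labelled Slc11a2KD APP/PS1 against those labelled Slc11a2KD WT. 7 of the 9 genes were lower, by between 31.4% and 50.9%, against 6.41% of all genes that were lower by the same rule. Olfml3 and Gpr34 did not pass the test. With only these groups in the fit 4 of the 9 were lower, against 303 of all 17060 genes tested, and Cx3cr1, Siglech and Sall1 did not pass. The median log2 fold change was -0.86 over the 9 genes and -0.07 over all genes. In 6 genes the groups did not overlap, which was true of 2.88% of all genes.

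P2ry12 was at 5432, 5909, 5105, 5616 and 5388 CPM in Slc11a2KD WT 0001, 0002, 0003, 0019 and 0022, and at 3009, 2724, 2796, 2082 and 2861 CPM in Slc11a2KD APP/PS1 0004, 0018, 0020, 0021 and 0023. The groups were wide apart, and the remaining level was 49.1% of WT (41.4 to 58.2; log2 fold change -1.03, SE 0.12, edgeR adjusted p = 2.41e-06). Tmem119, in the same order of samples, was at 4209, 4211, 4663, 4624 and 4947 CPM in Slc11a2KD WT and at 2757, 2308, 2393, 2119 and 2423 in Slc11a2KD APP/PS1. It kept 53.0% of WT (45.2 to 62.1; log2 fold change -0.92, SE 0.11, edgeR adjusted p = 4.42e-06).

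P2ry13 was at 1401, 1407, 1476, 1387 and 1340.2 CPM in Slc11a2KD WT and at 967, 803, 796, 530 and 759 in Slc11a2KD APP/PS1, a log2 fold change of -0.86 (SE 0.13, edgeR adjusted p = 5.68e-05). Selplg was at 1677, 1740.3, 1985, 1553 and 1425 CPM in Slc11a2KD WT and at 1216, 987, 893, 598 and 884 in Slc11a2KD APP/PS1, a log2 fold change of -0.87 (SE 0.14, edgeR adjusted p = 0.000194). In both genes 0004 was the highest and 0021 the lowest APP/PS1 sample, and no sample crossed into the other group.

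Cx3cr1 was at 2749, 3016, 2854, 2334 and 2152 CPM in Slc11a2KD WT and at 2152, 1809, 1615, 1178 and 1673 in Slc11a2KD APP/PS1, a log2 fold change of -0.64 (SE 0.13, edgeR adjusted p = 0.00211). The groups touched, since APP/PS1 0004 and WT 0022 had nearly the same level. Siglech was at 740.3, 707, 547, 551 and 553 CPM in Slc11a2KD WT and at 507, 410, 386, 402 and 423 in Slc11a2KD APP/PS1, a log2 fold change of -0.54 (SE 0.13, edgeR adjusted p = 0.00609). With only the 2 groups compared in the fit, the adjusted p was 0.0551 for Cx3cr1 and 0.0519 for Siglech.

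Sall1 was at 282, 257, 320.4, 229 and 128 CPM in Slc11a2KD WT and at 233, 159, 129, 48.6 and 58.1 in Slc11a2KD APP/PS1. The spread was wide in both groups, which overlapped, and in each the libraries from 18 on were the lowest. The log2 fold change was -0.96 (SE 0.31, edgeR adjusted p = 0.0353), and with only these groups in the fit it did not pass (-0.92, edgeR adjusted p = 0.179). Leaving out Slc11a2KD WT 0001, 0002 or 0003 or Slc11a2KD APP/PS1 0020, 0021 or 0023 in turn ended the call of Sall1, with adjusted p-values from 0.0651 to 0.0993 by edgeR and log2 fold changes from -0.96 to -0.75.

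Gpr34 and Olfml3 did not pass the test. Gpr34 was at 3685, 3744, 3066, 4313 and 5083 CPM in Slc11a2KD WT and at 3093, 3387, 4456, 4666 and 4416 in Slc11a2KD APP/PS1, and all 5 APP/PS1 samples lay within the WT range (log2 fold change 0.01, SE 0.15, edgeR adjusted p = 0.981). Olfml3 was at 2970.2, 2652, 2718, 2290 and 2173 CPM in Slc11a2KD WT and at 2121, 2217, 1769.8, 1652 and 2100 in Slc11a2KD APP/PS1. 4 of its 5 APP/PS1 samples lay below every WT sample (log2 fold change -0.38, SE 0.15, edgeR adjusted p = 0.0795). Without Slc11a2KD WT 0022, Olfml3 passed (-0.43, edgeR adjusted p = 0.0404).

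Of the 36 ratios in the tamoxifen arm, 8 differed between the genotypes, each with an adjusted p = 0.0357 by exact permutation test (raw p = 0.00794, the smallest that 5 against 5 allow). P2ry12 fell more than Gpr34 by 1.05, more than Olfml3 by 0.66, more than Siglech by 0.50 and more than Cx3cr1 by 0.38 on the log2 scale. Tmem119 fell more than Gpr34 by 0.93 and more than Olfml3 by 0.54, and P2ry13 fell more than Olfml3 by 0.51. Selplg fell more than Cx3cr1 by 0.25. The permutations did not hold the run of library numbers, whose part in these ratios was not tested. Between libraries 18 to 23 and 1 to 4, log2 fold changes were 0.44 for Gpr34, -0.40 for Cx3cr1 and -0.38 for Selplg. They were -0.08 for P2ry12 and -0.02 for Tmem119. The tests were at their smallest p with 5 samples a group, and without any 1 of the samples 0003, 0019, 0022, 0018, 0020, 0021 and 0023 no pair passed.

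The libraries labelled Slc11a2KD were set against Control within each genotype, where knockdown, tamoxifen and library run cannot be told apart. In WT, 0 of the 9 genes differed between the libraries labelled Slc11a2KD and Control, by edgeR and by DESeq2, and the share of all genes called by edgeR was 0%, while DESeq2 called 4 genes lower and 6 higher of 18759. Every log2 fold change lay between -0.10 (Sall1) and 0.10 (Gpr34), with P2ry13 at -0.09, Cx3cr1 at -0.08, Tmem119 at -0.03, Siglech at 0.01, Selplg at 0.03, P2ry12 at 0.04 and Olfml3 at 0.06, every edgeR adjusted p was 1, and 0 of the 9 had an unadjusted p under 0.05 against 5.92% of all genes. All 9 genes had overlapping groups, and among all genes 0.0533% lay wholly lower and 0.144% wholly higher. The 95% intervals placed the level in Slc11a2KD WT between 84.5% and 114% of Control WT for Tmem119, between 87.3% and 121% for P2ry12, and between 61.7% and 142% for Sall1, the least precise.

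In APP/PS1, 0 of the 9 genes differed between Slc11a2KD and Control by edgeR or DESeq2, with 0% of all genes called by edgeR, whereas DESeq2 called 131 genes lower and 449 higher of 18759. Gpr34 was the 1 gene of the 9 with an unadjusted p under 0.05, against 20.6% of all genes, and stood at 127.5% of Control APP/PS1 (104 to 156; log2 fold change 0.35, SE 0.14, edgeR adjusted p = 0.206). P2ry12 stood at 99.5% (84.6 to 117) and Tmem119 at 110.2% (94.8 to 128). Sall1 had a log2 fold change of -0.38 (SE 0.29), Olfml3 -0.22 (SE 0.14), Cx3cr1 -0.21 (SE 0.13), Selplg -0.18 (SE 0.14), P2ry13 -0.15 (SE 0.12) and Siglech -0.06 (SE 0.12), and all 9 genes had overlapping groups (0.362% of all genes lay wholly lower and 0.458% wholly higher). Without Slc11a2KD APP/PS1 0004, Gpr34 passed (0.43, edgeR adjusted p = 0.0431), and in that fit 1696 genes were lower and 1373 higher, against 0 with 0004 kept. In choroid plexus markers 0004 summed to 2.30 CPM, within the 1.30 to 5.41 of Control APP/PS1, and the other 4 Slc11a2KD APP/PS1 samples to 89.5 to 494, so without 0004 the groups did not overlap in these markers, whose part in the result was not tested.

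**Figure D4:**
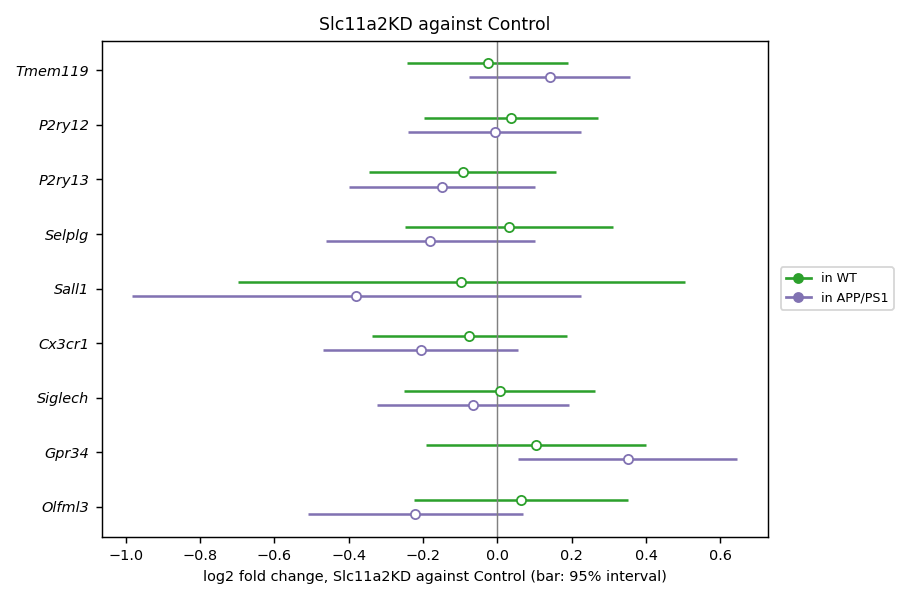
log2 fold change of each gene in Slc11a2KD against Control, within WT (green) and within APP/PS1 (purple), with bars for the 95% interval. All points are open, since no edgeR adjusted p was under 0.05. The estimates in WT lie between -0.10 and 0.10, and Gpr34 in APP/PS1, at 0.35, is the only gene whose interval excludes 0.

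The difference between the APP/PS1 effects in the arms, the interaction of genotype and knockdown, was called for 0 of the 9 genes by edgeR and by DESeq2. The share of all genes called by edgeR was 0% (7 lower and 18 higher by DESeq2), and 0 of the 9 had an unadjusted p under 0.05 against 9.08% of all genes. The lowest adjusted p was 0.575, for Olfml3, with an interaction of -0.28 (SE 0.20, edgeR). Gpr34 was at 0.25 (SE 0.20), Selplg at -0.21 (SE 0.19), Cx3cr1 at -0.13 (SE 0.18), Siglech at -0.07 (SE 0.18) and P2ry13 at -0.06 (SE 0.17). The interval for Tmem119 was -0.14 to 0.47 and that for P2ry12 -0.37 to 0.29 on the log2 scale, and that for Sall1 was wider, -1.13 to 0.57.

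The runs of library numbers moved with some of these genes. Between Slc11a2KD libraries 18 to 23 and 1 to 4, with the group held in the fit, Sall1 was lower by 0.91 (log2 fold change -0.91, SE 0.26, edgeR adjusted p = 0.0131), Cx3cr1 lower (-0.40, adjusted p = 0.0128) and Selplg lower (-0.38, adjusted p = 0.0336, edgeR). Gpr34 was higher (0.44, SE 0.14, edgeR adjusted p = 0.0209). These are 3 of 9 genes lower against 12.7% of all genes and 1 of 9 higher against 11.3%. Siglech (-0.29), Olfml3 (-0.24), P2ry13 (-0.21), P2ry12 (-0.08) and Tmem119 (-0.02) did not pass. Libraries 1 to 4 held 3 WT samples and 1 APP/PS1 sample, so the run and the genotype were unevenly mixed in the tamoxifen arm, and what set the runs apart was not tested. With the run as a term, P2ry12, Tmem119, P2ry13, Selplg, Cx3cr1 and Siglech stayed lower in Slc11a2KD APP/PS1, and Sall1 did not pass (-0.65, edgeR adjusted p = 0.133). In that fit 652 of all 18759 genes were lower.

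Markers of other cells differed in level between the genotypes, beside the losses described. The counts of markers are to be read against 4.48% of all genes lower and 5.99% higher in Control, and 6.41% and 9.77% in Slc11a2KD. In Control, 5 of 6 markers of border-associated macrophages were lower in APP/PS1, among them Mrc1 and F13a1, with a summed level of 196 to 397 CPM in WT and 73.9 to 179 in APP/PS1. Of 6 endothelial markers, 4 were lower and Flt1 was higher (summed 166 to 370 CPM in WT and 105 to 144 in APP/PS1). Of 6 oligodendrocyte markers, 4 were lower, Mbp among them (735 to 2801 and 364 to 973 CPM). Of 10 choroid plexus markers 8 were lower, with Ttr at 0 counts in 7 of 22 samples. High sums were found in Control WT 0012 and 0015 (1970 and 1022 CPM), and the other 4 Control WT samples lay between 1.09 and 5.34 CPM, against 1.30 to 5.41 CPM in Control APP/PS1. Without 0012 and 0015, 6 of the 9 identity genes were again lower, against 497 of all 18562 genes tested in that fit. In Slc11a2KD, 3 of 6 border-associated macrophage markers (summed 215 to 490.0 CPM in WT and 108 to 168 in APP/PS1), 3 of 6 endothelial markers (141 to 318 and 87.4 to 166) and 2 of 6 oligodendrocyte markers (1007 to 3627 and 554 to 1269) were lower, and 0 of 10 choroid plexus markers passed by edgeR (0 at an unadjusted p under 0.05), with sums of 10.6 to 796 and 2.30 to 494 CPM.

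Blood cell markers were also read. The summed levels in Control WT and Control APP/PS1 were 66.1 to 261 and 18.9 to 81.9 CPM for 6 neutrophil markers (3 lower), 40.7 to 92.8 and 15.4 to 39.1 for 6 monocyte markers (2 lower), and 1.60 to 13.3 and 0.362 to 2.66 for lymphocyte markers (1 of 5 measured lower, Cd3g at 0 in 18 of 22 samples). In Slc11a2KD WT and Slc11a2KD APP/PS1 the sums were 70.5 to 402 and 34.8 to 119 CPM for neutrophil, 43.5 to 83.1 and 18.5 to 71.2 for monocyte and 1.98 to 12.8 and 0.552 to 8.81 for lymphocyte markers, with 0 called by edgeR (3, 2 and 1 at an unadjusted p under 0.05). Astrocyte markers summed to 8.65 to 26.3 CPM in Control WT and 41.3 to 106 in Control APP/PS1, where Gfap was the 1 of 6 called and was higher. In Slc11a2KD they summed to 11.7 to 25.7 CPM in WT and 45.1 to 135 in APP/PS1, and Gfap was again the 1 called. Neuron markers summed to 3.21 to 8.33 and 1.43 to 5.36 CPM in Control (2 of 6 lower, Gad1 at 0 in 12 of 22 samples), and to 3.71 to 9.46 and 2.36 to 4.31 CPM in Slc11a2KD (0 called by edgeR, 2 at an unadjusted p under 0.05). Plasmacytoid dendritic cells also carry Siglech, and of their 5 measured markers Cox6a2 was higher in Control APP/PS1, while in Slc11a2KD Cox6a2 and Bst2 were higher and Tcf4 was lower (edgeR adjusted p = 4.74e-06, 0.00660 and 0.0210). The sums were 196 to 274 CPM in Control WT, 242 to 355 in Control APP/PS1, 184 to 247 in Slc11a2KD WT and 258 to 455 in Slc11a2KD APP/PS1, and Ccr9 was at 0 in 12 of 22 samples. The part of these cells in the losses was not tested.

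Markers that all myeloid cells share went both ways, with log2 fold changes from -0.65 to 0.53 in Control, and their sums overlapped between the genotypes. Of 8 such genes, 0 passed the test in Control by edgeR (2 at an unadjusted p under 0.05), with a summed level of 7751 to 8794 CPM in WT and 8141 to 9171 in APP/PS1. Itgam, which did not pass, lay between 267 and 333 CPM in Control WT and between 111 and 246 in Control APP/PS1, without overlap. In Slc11a2KD, 1 of the 8 was higher, Fcer1g. Scaled to these 8 genes instead of to all genes, the same numbers of identity genes were lower, 6 in Control and 7 in Slc11a2KD. Of all 18759 genes, 906 and 1346 were lower in these fits. The log2 fold changes in Control were -1.13 for Tmem119 and -1.03 for P2ry12.

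Other homeostatic microglia genes were read beside the 9. Of 28 listed genes 27 were tested, and in Control APP/PS1 against Control WT 12 were lower and 3 higher, against 4.48% and 5.99% of all genes (median log2 fold change -0.40). The lens crystallin gene Crybb1 (-1.60, SE 0.21), the protease inhibitor gene Cst3 (-1.04, SE 0.11) and the adhesion receptor gene Adgrg1 (-0.93, SE 0.15) fell most, and Serpine2, another protease inhibitor, rose by 1.37 (SE 0.12). Plxdc2 and Csf3r also rose. The growth factor receptor gene Csf1r did not pass in Control (-0.22, edgeR adjusted p = 0.588). In Slc11a2KD 12 were lower and 1, Serpine2, was higher, against 6.41% and 9.77% of all genes (median -0.44). Crybb1 was at -0.76 (SE 0.22) there, Cst3 at -1.06 (SE 0.12) and Adgrg1 at -1.11 (SE 0.17).

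**Figure D5:**
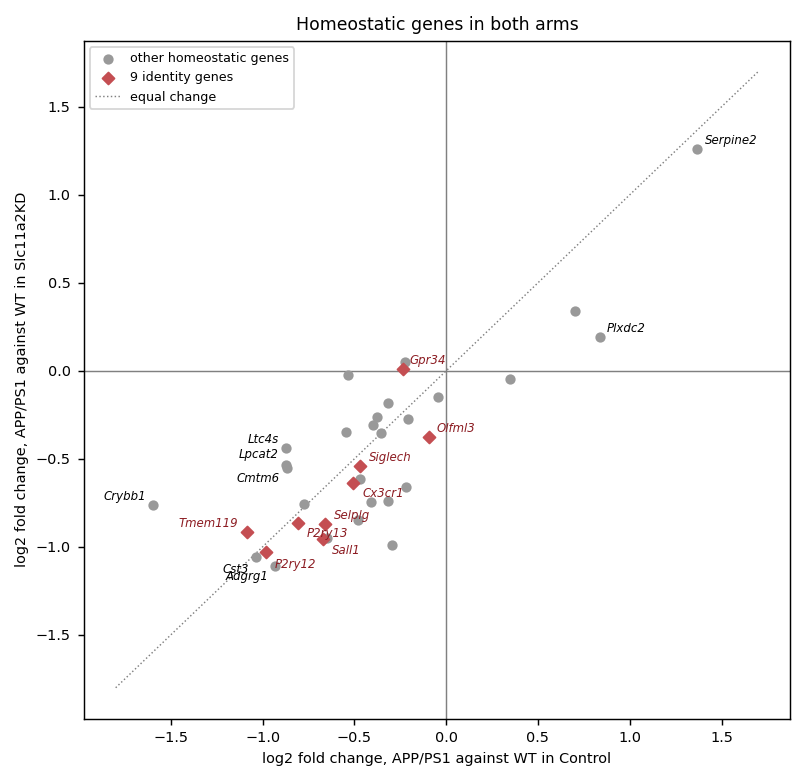
log2 fold change in APP/PS1 against WT, within Control (horizontal axis) and within Slc11a2KD (vertical axis), for the 9 identity genes (red diamonds) and 27 other homeostatic genes (grey circles). The arms share no samples, the dotted line marks equal change, and non-member names are given where the size in Control was over 0.8. Tmem119, P2ry12 and P2ry13 lie in the lower left near the line, and Serpine2 is farthest to the upper right, at 1.37 and 1.26.

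Genes that set microglial identity moved both ways. Of 14 regulators, 3 were higher and 2 lower in Control, against 5.99% and 4.48% of all genes. Csf1 (2.53, SE 0.37), a growth factor for microglia, Tgfbr2 (0.88, SE 0.17) and the transcription factor gene Irf8 (0.36, SE 0.08) were higher in Control APP/PS1, and Tgfbr1 (-0.68, SE 0.08) was lower, as was Nrros (-0.37, SE 0.12), whose product holds latent TGF-beta on microglia. Tgfbr1 and Tgfbr2 encode the chains of the TGF-beta receptor. Spi1, the gene of PU.1, did not pass (-0.15, edgeR adjusted p = 0.240). In Slc11a2KD, 2 were higher, Csf1 (2.75) and Irf8 (0.36), and 3 lower, Mef2a (-0.97), Tgfbr1 (-0.57) and Smad3 (-0.67). The shares of all genes there were 9.77% higher and 6.41% lower.

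Of 10 ligands and partners 9 were tested, and 1 was lower and 1 higher in Control, against 4.48% and 5.99% of all genes. Cx3cl1, the ligand of Cx3cr1, was lower (-2.14, SE 0.47, edgeR adjusted p = 0.00340) but scarce, with a median of 2.00 CPM in Control WT and 0.685 in Control APP/PS1. Thbs1 was higher (1.34, SE 0.27). Tyrobp, the adaptor that passes on the Siglech signal, was at 0.33 in Control (edgeR adjusted p = 0.122) and was higher in Slc11a2KD (0.57, edgeR adjusted p = 0.00999), where Siglech itself was lower. Adam10, a protease that sheds Cx3cl1, was lower in Slc11a2KD (-0.64, SE 0.17). In that arm 2 of the 9 tested were lower and 1 higher, against 6.41% and 9.77% of all genes. Cx3cl1 had a median of 2.64 CPM in Slc11a2KD WT and 0.681 in Slc11a2KD APP/PS1.

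Within groups the 9 genes did not vary as 1 block. Correlations of log2 CPM after each group's mean was subtracted, over 22 samples of unequal depth that include both runs of Slc11a2KD libraries, are given as a description. P2ry12 and P2ry13 had r = 0.82, Cx3cr1 and Selplg 0.88, Cx3cr1 and P2ry13 0.86, and Cx3cr1 and Sall1 0.77. Tmem119 ranged from 0.52 with Olfml3 to -0.06 with Gpr34, and Olfml3 from 0.52 with Tmem119 to -0.38 with Gpr34. Gpr34 reached at most 0.30, with P2ry12, and went against Selplg (-0.55) and Sall1 (-0.53). The genes whose level was most like the mean of the 9 over 22 samples, among 7888 genes with at least 10 CPM on average, were Adgrg1 (r = 0.98), Sting1 (0.97), Etv1 (0.96), Cd33 (0.96) and Gna15 (0.96), and within groups Fermt3 (0.90), Adgrg1 (0.90), Tgm2 (0.85), Cd33 (0.85) and Fubp3 (0.84). Most opposite over the 22 samples were Bex3, Tpi1, Mif, Fabp3 and Pkib, each at r = -0.96. Within groups these had r = -0.75, -0.72, -0.73, -0.63 and -0.74, in that order. The values over the 22 samples include the differences between the groups.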

How the data were processed

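The authors trimmed reads (Trim Galore 0.6.7), aligned them with STAR to mm39 and deposited raw counts per gene for 23 samples, and they removed 1 Control APP/PS1 sample, taken here as 0010, the one absent from their heat map. A deposited table of signal, counts normalised by the authors with DESeq2 1.36.0, was not used here. No per-sample column of the count table was left unused (0). Low genes were dropped unless 3 samples or more had 5 counts. The rest went, after TMM scaling, into the quasi-likelihood test of edgeR 4.0.16 (R 4.3.3), 1 model with the 4 groups and no covariate, two-sided, with Benjamini-Hochberg adjustment over the genes tested and a threshold of 0.05. The standard error is the log2 fold change over the square root of F. CPM were TMM-scaled, and ratios used a prior count of 2. Exon lengths were joined over all isoforms of GENCODE on GRCm39, in a later release than the one used for the counts. Intervals are 95%.

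The 9 genes and all lists were chosen with earlier results of these data known. The text names the 9 genes in each comparison and, of each list, those with the largest change past the threshold in Control or the highest level; further names (Csf1r, Spi1, Tyrobp, Adam10, and calls in Slc11a2KD) were chosen after their values were seen. The labels give no litter or batch, so p-values measure the spread between samples; in Slc11a2KD, libraries 1 to 4 differed from 18 to 23. The highest correlation of log2 CPM between 2 of the 231 pairs of samples was 0.973. Alternatives were DESeq2 1.42.0, its size factors, scaling to pan-myeloid genes, no filter, at least 10 counts in every sample, 0010 kept, Control WT 0012 and 0015 left out, library numbers as a term, only the compared groups, each sample left out, and, chosen after seeing the data, Slc11a2KD libraries 18 to 23 only. The steps were tested on simulated data.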

Additional observations from a re-analysis of the deposited data

How the results depend on the processing

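With 5 or 6 samples a group, differences smaller than about the intervals given could not be detected, while counting error was small at these depths. No direction of a called gene reversed. In Control APP/PS1 against Control WT, 6 genes were lower without each sample in turn (6 to 6). Of all genes, 622 of 18688 (without Control APP/PS1 0007) to 879 of 18695 (without Control WT 0014) were lower. Sall1 also passed with DESeq2 (-0.71, adjusted p = 0.0474) and with only those groups in the fit (-0.66, edgeR adjusted p = 0.00289). With library numbers as a term its estimate stayed at -0.67 with a narrower error (SE 0.226 against 0.278, edgeR adjusted p = 0.0467). That term was the same for every Control library, so it adjusted nothing in this comparison. In Slc11a2KD APP/PS1 against Slc11a2KD WT, 4 genes were lower with only the groups compared in the fit (303 of all 17060 genes). Cx3cr1, Siglech and Sall1 were lost in that fit. Without each sample in turn 6 to 8 were lower. Of all genes, 728 of 18650 (without Slc11a2KD WT 0002) to 2352 of 18700 (without Slc11a2KD APP/PS1 0004) were lower. Within libraries 18 to 23, 5 were lower in the same comparison, against 383 of all 18366 genes, Sall1 and Siglech being lost (edgeR adjusted p = 0.168 and 0.0855). With all Slc11a2KD samples, Olfml3 passed with DESeq2 (-0.36, adjusted p = 0.0493). Slc11a2KD APP/PS1 of libraries 18 to 23 against Control APP/PS1 gave 1 gene lower, Cx3cr1 (-0.34, edgeR adjusted p = 0.0393), and 1 higher, Gpr34 (0.40, edgeR adjusted p = 0.0303), where 2329 genes were lower and 1691 higher of all 18366 tested; without each sample 0 were lower. The cause was not tested. The knockdown in WT and the interaction gave 0 calls without each sample in turn. The pairs of genes past the threshold numbered 11 to 18 in Control without each sample, and 0 to 12 in Slc11a2KD, with 0 in libraries 18 to 23, where 4 against 2 samples cannot reach it. Scaling to pan-myeloid genes moved the median of all genes to 0.14 (log2) in Slc11a2KD APP/PS1 against Control APP/PS1. No paired analysis was possible because the labels give no litter or other pairing of samples.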

Other observations

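Genes of disease-associated microglia, the state described around plaques, rose in the same libraries in which the identity genes fell. Of 20 listed genes, 16 were higher and 0 lower in Control APP/PS1 against Control WT (median log2 fold change 1.26), against 5.99% of all genes higher by edgeR. The melanosomal glycoprotein gene Gpnmb (7.01, SE 1.19), the cystatin gene Cst7 (4.96, SE 0.54), the lectin receptor gene Clec7a (3.50, SE 0.32) and the lipase gene Lpl (3.41, SE 0.52) rose most. In Slc11a2KD APP/PS1 against Slc11a2KD WT 16 were higher and 0 lower as well (median 1.51), against 9.77% of all genes, with Cst7 at 5.38 and Clec7a at 3.58. Trem2, a receptor gene of that state, was at 0.52 (SE 0.10) in Control and 0.83 (SE 0.11) in Slc11a2KD.

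Control APP/PS1 0010, scaled over all 23 samples, lay below the other 6 samples of its group for Cx3cr1 (1179 CPM against 1701 to 2243), P2ry12 (2255 against 2434 to 3213), P2ry13 (632 against 755 to 903), Sall1 (87.6 against 125 to 202), Selplg (589 against 860.3 to 1230) and Olfml3 (1520 against 1597 to 2951). It lay above them for Gpr34 (5173 against 2747 to 3634) and Siglech (562 against 353 to 543), and within their range for Tmem119 (1964).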
